A study of Mus musculus with 6 samples.

Results

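Chemokines are small secreted proteins that steer the movement of white blood cells. The chemokine genes described here are the 34 protein-coding genes whose symbol on the array begins with Ccl, Cxcl, Cx3cl or Xcl and a number, out of 19225 protein-coding genes measured. A gene with several probe sets would be represented by the brightest on average over the 6 arrays, but each member had 1 probe set that named it alone. The tissue was subcutaneous inguinal white adipose tissue from C57BL/6 males at 2 months of age. The 3 mice of the KO group carried floxed Tfg alleles and Adipoq-ERT2Cre, a Cre recombinase that tamoxifen activates and the adiponectin promoter drives. The 3 mice of the WT group carried the floxed alleles alone. Both groups received intraperitoneal tamoxifen for 5 days, and RNA was prepared 2 weeks after that. The promoter is active in adipocytes, while the RNA came from the whole tissue with its vessels, connective tissue and immune cells.

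Chemokines bind receptors that span the membrane, signal through inhibitory G proteins, and draw cells up a gradient of the ligand. The families are named for the spacing of the first cysteines (CC, CXC, CX3C and C). Inflammatory members such as Ccl2 and Cxcl10 are induced in resident cells and bring in monocytes, neutrophils or T cells, while homeostatic members such as Ccl19, Cxcl12 and Cxcl13 place cells within tissues and lymph nodes. In fat, chemokines are best known for drawing macrophages and lymphocytes into the tissue in obesity.

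Values are log2 signals, so a difference of 1 is a doubling, and all means are over n = 3 arrays with the SD. The median signal lay between 6.96 and 7.02 on the WT arrays and between 6.47 and 6.76 on the KO arrays. The median change of all 65956 probe sets, KO minus WT, was -0.37. A chemokine with a change of -0.37 therefore moved with the typical probe set, and changes are also given against that median. Tfg itself had WT signals of 7.97, 7.94 and 7.91 and KO signals of 7.99, 8.21 and 8.03. The KO signals were all above the WT ones, but the change of 0.14 ± 0.11 (SE) did not pass (adjusted p = 0.345, exact 2-sided permutation p = 0.1, the smallest that this design allows). Its signal was thus not lower under the KO label. Where its probe set lies relative to the deleted exons is not given here. The groups are called WT-labelled and KO-labelled arrays below, and every direction rests on those labels.

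A call is an adjusted p under 0.05 in limma's fit over all probe sets. Of the 34 chemokine genes 1 rose, Cxcl9, and 2 fell, Ccl19 and Ccl17, and the other 31 did not pass. That is 8.82% called, beside 20.9% of all probe sets and 20.8% of protein-coding genes. Over all probe sets 5.32% were called higher and 15.6% lower, and over the protein-coding genes 10.7% were called higher and 10.2% lower. The chemokines' counts, 2.94% higher and 5.88% lower, were smaller shares than either background in both directions. An unadjusted p under 0.05 was reached by 11 chemokines (32.4%), beside 47.9% of all probe sets and 48.4% of protein-coding genes. The median change of the chemokines was -0.32, beside -0.37 for all probe sets and -0.18 for protein-coding genes. Of the 34 genes 28 had a change below 0 (82.4%), beside 78.8% of all probe sets and 64% of protein-coding genes. Against the median of all probe sets 20 chemokines lay above and 14 below (41.2%), beside 49.9% of all probe sets and 31.4% of protein-coding genes below it.

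To show the regulatory sequence of the genes whose values stand out, 4 promoters are printed, those of the 3 called genes and of Cxcl10, the chemokine neighbour of Cxcl9. Each runs 5′ to 3′ on the strand of the gene, from 250 bases before the annotated start to 50 after it, taken from RefSeq on GRCm38.p6. Of the 34 members 24 matched a RefSeq promoter. The Ccl19 promoter is that of the placed gene, while the identifier of its probe set names a scaffold, as described below. Capitals mark matches on either strand to 3 motifs: the core of the interferon response element (GAAA, any 2 bases, GAAA), the gamma-activated site (TTCNNNGAA) and an NF-kB-like site (GGGANTTCC). No matches overlap in these 4 promoters.
Cxcl9 (chr5:92328030-92328329, minus strand): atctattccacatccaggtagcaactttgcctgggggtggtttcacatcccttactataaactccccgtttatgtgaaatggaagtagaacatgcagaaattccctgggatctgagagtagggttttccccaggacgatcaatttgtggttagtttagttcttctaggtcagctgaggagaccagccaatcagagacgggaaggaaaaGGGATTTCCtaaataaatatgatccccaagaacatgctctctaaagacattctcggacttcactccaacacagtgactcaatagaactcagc
Cxcl10 (chr5:92348840-92349139, minus strand): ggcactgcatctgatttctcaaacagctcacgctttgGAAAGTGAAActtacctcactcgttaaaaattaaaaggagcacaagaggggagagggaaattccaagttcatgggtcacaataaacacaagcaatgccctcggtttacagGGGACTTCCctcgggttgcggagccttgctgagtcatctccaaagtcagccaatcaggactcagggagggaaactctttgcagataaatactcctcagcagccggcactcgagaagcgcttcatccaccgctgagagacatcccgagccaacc
Ccl19 (chr4:42756316-42756615, minus strand): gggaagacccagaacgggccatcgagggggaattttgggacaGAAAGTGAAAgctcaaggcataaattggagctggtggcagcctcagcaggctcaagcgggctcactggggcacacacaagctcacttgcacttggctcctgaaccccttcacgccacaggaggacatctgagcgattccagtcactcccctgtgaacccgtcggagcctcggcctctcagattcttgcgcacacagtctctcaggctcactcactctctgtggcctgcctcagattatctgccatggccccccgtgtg
Ccl17 (chr8:94810203-94810502, plus strand): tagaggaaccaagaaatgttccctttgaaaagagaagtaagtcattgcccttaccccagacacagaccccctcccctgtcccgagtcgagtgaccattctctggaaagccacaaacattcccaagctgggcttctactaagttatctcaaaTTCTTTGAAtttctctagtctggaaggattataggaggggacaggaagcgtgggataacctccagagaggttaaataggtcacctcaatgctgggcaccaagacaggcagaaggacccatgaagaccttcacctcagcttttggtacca

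The NF-kB-like letters stood in the windows of Cxcl9, Cxcl10 and Ccl25, which is 12.5% of the 24 members matched and 1.69% of 27025 promoters of the same length. The interferon response core stood in those of Cxcl10, Ccl19 and Cxcl14, again 12.5%, beside 3.49% of all promoters. The gamma-activated site was found in Ccl17 and Cxcl14, or 8.33% beside 8.47% of all. Of the 3 genes with the NF-kB-like letters Cxcl9 rose, while Cxcl10 and Ccl25 stood at changes of -0.42 and -0.11 without passing. These matches describe letters in a window and do not show that a factor binds there.

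**Figure D1:**
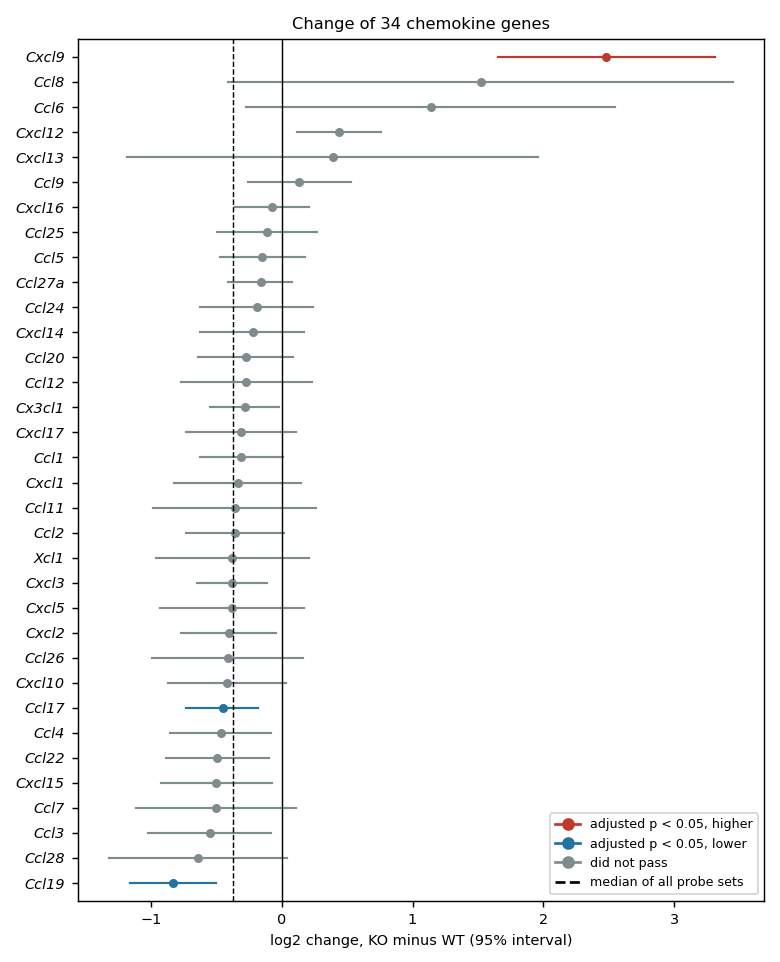
Change of the 34 chemokine genes between KO-labelled and WT-labelled arrays on the log2 scale (x axis), 1 gene per row, with 95% intervals from limma over 3 arrays per group. The solid line marks 0 and the dashed line the median of all probe sets, -0.37; most genes lie around the dashed line, with Cxcl9 far to the right at 2.48 and Ccl19 at the left end at -0.83.

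Among the ligands of CXCR3, the receptor of activated T cells and natural killer cells, Cxcl9 and Cxcl10 gave different values. Cxcl9, which interferon gamma induces, read 6.58, 6.96 and 6.41 on the WT-labelled arrays and 9.34, 9.64 and 8.41 on the KO-labelled arrays. All 3 KO-labelled values lay above all WT-labelled values. Its mean went from 6.65 ± 0.28 (SD) to 9.13 ± 0.64, a change of 2.48 ± 0.34 (SE) or 5.58-fold (95% interval of the log2 change 1.65 to 3.31, adjusted p = 0.0354). Against the median of all probe sets the change was 2.85. Cxcl10, a ligand of the same receptor, read 5.34, 5.94 and 5.74 on the WT-labelled and 5.24, 5.13 and 5.39 on the KO-labelled arrays. Those groups overlapped, and the change of -0.42 ± 0.18 (SE) did not pass (adjusted p = 0.118, 95% interval -0.87 to 0.03). The interval of Cxcl10 lies wholly below that of Cxcl9, but the difference between these probe sets was not tested. Cxcl10 had the lowest mean signal of the chemokines, 5.46 over all arrays. On every array it lay below the median of the olfactory receptor genes, which fat is not known to use. Those medians were 7.39, 7.44 and 7.61 on the WT-labelled and 6.87, 6.31 and 6.82 on the KO-labelled arrays. The WT-labelled signals of Cxcl9 lay below them too, while its KO-labelled signals lay above. A level of Cxcl10 above background was not tested, so no contrast between the ligands is drawn. Cxcl11, the other ligand of CXCR3, is annotated as a pseudogene in the C57BL/6J reference and is no member here; its probe set fell by 0.67 on the log2 scale (adjusted p = 0.0354), or -0.30 against the median. That call was lost after centring (adjusted p = 0.146) and quantile normalization (adjusted p = 0.141). The Cxcl11 signals also lay below the olfactory receptor medians on every array.

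Across the 13 alternatives the change of Cxcl9 lay between 2.07 and 2.84 and its adjusted p between 0.0122 and 0.114. It passed in 9 of them. It did not pass without WT 1, WT 2, WT 3 or KO 3, fits in which no probe set passed at all.

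Ccl19 was the chemokine with the largest fall. It is a ligand of CCR7 that guides dendritic cells and naive T cells into lymph nodes. Its signal was 8.15, 8.14 and 8.37 on the WT-labelled arrays and 7.53, 7.22 and 7.41 on the KO-labelled arrays, without overlap. The mean fell from 8.22 ± 0.13 (SD) to 7.39 ± 0.16, a change of -0.83 ± 0.14 (SE), or 1.78-fold lower (adjusted p = 0.0354). Against the median of all probe sets it was -0.47, and it also passed after centring each array on its median (-0.50, adjusted p = 0.0462) and after quantile normalization (-0.62, adjusted p = 0.0362). The call was lost without WT 1, WT 2, WT 3 or KO 3, where no probe set passed. The 1082 olfactory receptor genes, which fat is not known to use and which are given here for scale, had a median change of -0.82, close to that of Ccl19. Their median signals on WT 1, WT 2 and WT 3 were 7.39, 7.44 and 7.61, below those of Ccl19.

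The value of Ccl19 is uncertain for a second reason, since the mouse genome holds near-identical copies of Ccl19, Ccl21 and Ccl27 genes. The identifier of the Ccl19 probe set names a random scaffold of chromosome 4, not the placed locus whose promoter is printed. Which copy gave its signal was not tested. The probe set of the pseudogene Ccl19-ps1 fell by 0.70 (adjusted p = 0.0367), but unlike Ccl19 it did not pass after centring (adjusted p = 0.0847) or quantile normalization (adjusted p = 0.051). A further 19 probe sets name several such copies at once and cannot be given to a single gene. They held 15 distinct sets of values, of which 11 were called lower and 0 higher, beside 15.6% called lower over all probe sets. The median change of the 15 was -0.85, beside -0.82 for the olfactory receptor genes. These probe sets name near-identical copies, so their counts are not separate results. Those that list Ccl21 copies, the other ligands of CCR7, held 5 distinct sets of values with changes from -0.93 to -0.85, all called lower. Those that list Ccl19 copies held 5, from -0.94 to -0.72, all called lower. Those that list Ccl27 copies ranged from -1.08 to -0.04, with 1 of 5 called. After centring 4 of the 15 distinct sets were called lower, 2 that list Ccl19 and 2 that list Ccl21 copies. After quantile normalization 6 were, of which 4 list Ccl19 and 2 Ccl21 copies. Over all 65956 probe sets 3259 were called lower after centring and 2212 after quantile normalization. Ccl21a and its copies therefore have no value of their own here.

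Cxcl13, which calls B cells into follicles through CXCR5, varied more between the KO-labelled mice than between the groups. It read 9.30, 8.66 and 8.86 on the WT-labelled and 9.27, 8.04 and 10.68 on the KO-labelled arrays. KO 3 held the highest value of all 6 arrays and KO 2 the lowest. The change of 0.39 ± 0.64 (SE) did not pass (adjusted p = 0.633), and it was -0.29 without KO 3 and 1.03 without KO 2. Inguinal fat holds a lymph node, so markers of its cells were read beside these genes. Of 6 measured B cell and follicle markers 3 fell and 0 rose, and their list means ran from 6.93 to 6.96 (WT-labelled) and from 6.16 to 6.60 (KO-labelled). Of 6 measured T cell markers 1 fell and 0 rose (6.73 to 6.82 and 6.07 to 6.49). Of 6 lymph node stroma and high endothelial venule markers 0 were called (7.04 to 7.23 and 6.73 to 7.02), and 1 of them, Glycam1, reached an unadjusted p under 0.05. The share called lower over all probe sets was 15.6%. After centring 0 markers of these 3 lists were called, and after quantile normalization 1, the T cell gene Cd3g (adjusted p = 0.0452). Their part in the chemokine values was not tested. In bulk tissue, fewer cells of a type and less RNA per cell cannot be told apart.

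Ccl17 and Ccl22, made mainly by dendritic cells and macrophages, both signal through CCR4, which regulatory and type 2 helper T cells carry. Ccl17 read 6.98, 6.90 and 6.95 on the WT-labelled and 6.62, 6.40 and 6.45 on the KO-labelled arrays, without overlap. It fell by 0.45 on the log2 scale, with an SE of 0.11 (adjusted p = 0.0435), but against the median of all probe sets its change was -0.09. Its WT-labelled signals lay below the olfactory receptor medians of the same arrays, and a level above background was not tested. After centring the arrays the change was -0.12 and did not pass (adjusted p = 0.537), so relative to the other probe sets no fall was called. It was also lost after quantile normalization (adjusted p = 0.499), with the replicate block, and without WT 1, WT 2, WT 3, KO 2 or KO 3. Ccl22 stood at -0.49 without passing (adjusted p = 0.0657) and at -0.13 against the median. Cx3cl1 lies between these genes in the genome and encodes fractalkine, which is tethered to the membrane and binds CX3CR1. It read 6.56, 6.73 and 6.75 on the WT-labelled and 6.39, 6.41 and 6.39 on the KO-labelled arrays. The groups did not overlap, yet the change of -0.28 ± 0.11 (SE) did not pass (adjusted p = 0.0911) and lay at 0.08 against the median. The other ligand made as a membrane protein, Cxcl16, which binds CXCR6, stood at -0.07 (adjusted p = 0.621).

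**Figure D2:**
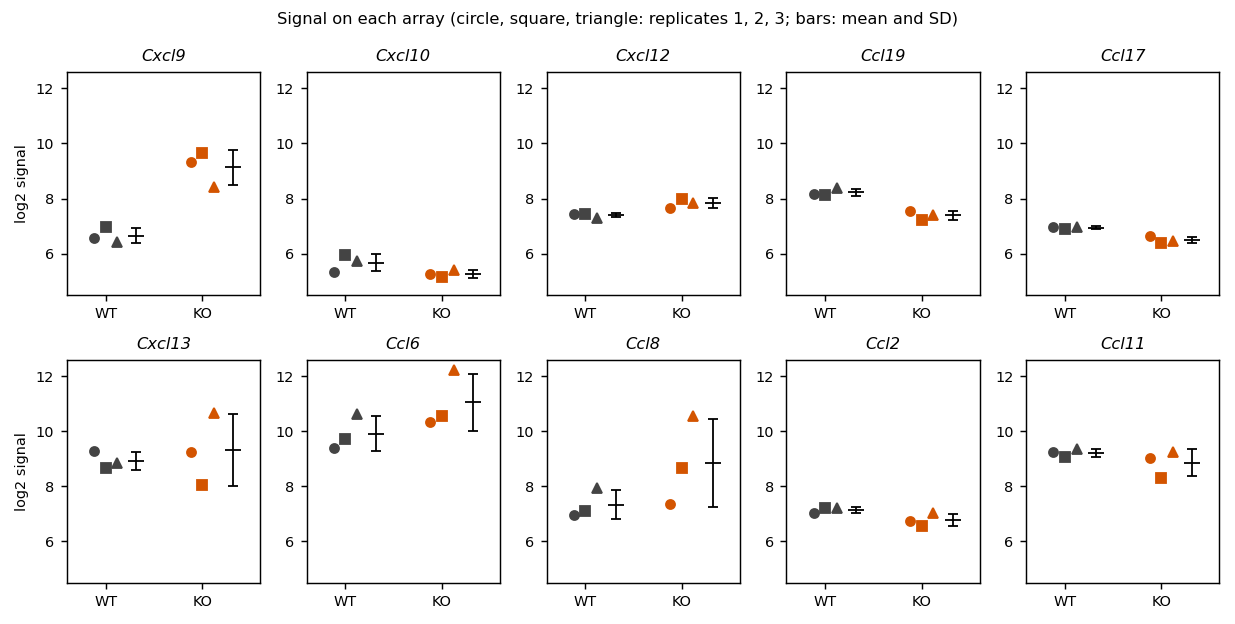
Log2 signal of 10 chemokine genes on each of the 6 arrays, with WT-labelled and KO-labelled arrays side by side, a marker shape for each replicate number, and bars for the mean and SD of 3 arrays. Cxcl9 is separated widely between the groups and Ccl19 by less, while Ccl6, Ccl8 and Cxcl13 show a high value on KO 3.

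Cxcl12, the ligand of CXCR4 and of the scavenger receptor ACKR3, which holds haematopoietic and immune cells in their niches, was the only other chemokine whose KO-labelled values all lay above the WT-labelled ones. It read 7.43, 7.42 and 7.30 on the WT-labelled arrays and 7.64, 8.0 and 7.83 on the KO-labelled arrays. The change of 0.44 ± 0.13 (SE), or 0.81 against the median of all probe sets, did not pass (adjusted p = 0.0573). It passed after centring the arrays (0.77, adjusted p = 0.0437) and in 4 other alternatives of 13, with adjusted p values between 0.0312 and 0.159 over all of them. Over all probe sets 11.1% had KO-labelled values entirely above the WT-labelled ones, over protein-coding genes 23.3%, and among the chemokines 2 genes did (5.88%). Cxcl14, a CXC chemokine of epithelia and fat, read 6.67, 6.53 and 6.99 on the WT-labelled and 6.41, 6.44 and 6.67 on the KO-labelled arrays, which overlapped (-0.22, adjusted p = 0.29). Cxcl17, a chemokine of mucosal surfaces, stood at -0.31 (adjusted p = 0.193).

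Ccl8 and Ccl6, CC chemokines made largely by macrophages, had higher means on the KO-labelled arrays, but the groups overlapped and neither passed. Ccl8, a ligand of CCR8 in the mouse, read 6.98, 7.11 and 7.94 on the WT-labelled and 7.37, 8.68 and 10.55 on the KO-labelled arrays. WT 3 was above KO 1, so the groups overlapped. The change was 1.52 ± 0.79 (SE), with a 95% interval of -0.41 to 3.45 (adjusted p = 0.167), and without KO 3 it was 0.68. Ccl6, a ligand of CCR1, read 9.40, 9.71 and 10.64 on the WT-labelled and 10.36, 10.56 and 12.25 on the KO-labelled arrays. Here too WT 3 lay above KO 1, and KO 3 above all others. The change was 1.14 ± 0.58 (SE), with a 95% interval of -0.27 to 2.55 (adjusted p = 0.16), and without KO 3 it was 0.54. With the replicate number as a block Ccl6 passed (adjusted p = 0.0441). Both genes were highest on array 3 of each group, though nothing in the labels ties mice of the same number together. Ccl9, the neighbour of Ccl6 and another ligand of CCR1, had means of 8.55 ± 0.14 and 8.68 ± 0.24 (SD), a change of 0.13 that did not pass (adjusted p = 0.512).

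Macrophage markers were read beside these genes. Of 12 measured, 2 rose (Lyz2 and C1qb), 2 fell (Ccr2 and Itgam) and 8 did not pass. The shares over all probe sets were 5.32% higher and 15.6% lower. Over all 65956 probe sets centring the arrays gave 5146 higher and 3259 lower, and quantile normalization 4032 and 2212. Of the 12 markers 4 were called higher after centring, with C1qa and Mrc1 added, and 0 lower. After quantile normalization 3 of these markers were called higher and 0 lower. Their list mean lay between 7.49 and 7.54 on the WT-labelled arrays and was 7.73, 7.63 and 7.87 on KO 1, KO 2 and KO 3, highest on KO 3 as for Ccl6 and Ccl8. It was higher on KO 1 than on KO 2, whereas Ccl6 and Ccl8 were lower on KO 1 than on KO 2. Among the KO-labelled arrays KO 3 was also highest in the B cell, lymph node stroma, neutrophil and mast cell lists, but not in the T cell list. Adgre1, a standard surface marker of mouse macrophages, had a change of -0.03 (adjusted p = 0.885). The part of macrophage content in the values of Ccl6 and Ccl8 was not tested.

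The ligands of CCR2, which recruit monocytes, did not pass, and their changes lay near the median change of all probe sets. The WT-labelled signals of Ccl2, Ccl7 and Ccl12 lay below the olfactory receptor medians of the same arrays. A level above background was not tested for these genes. Ccl2, the main monocyte attractant of obese fat, read 7.02, 7.20 and 7.20 on the WT-labelled and 6.75, 6.57 and 7.03 on the KO-labelled arrays. The ranges overlapped by a narrow margin, at 7.02 and 7.03. Its change was -0.36 ± 0.15 (SE), with a 95% interval of -0.73 to 0.02 (adjusted p = 0.115), or 0.01 against the median. Ccl7 read 6.71, 7.03 and 7.38 and then 6.82, 6.14 and 6.66, a change of -0.50 ± 0.25 (SE) that did not pass (adjusted p = 0.153). Ccl12 stood at -0.27 (adjusted p = 0.308). Ccl1, which binds CCR8 and shares the genomic cluster of these genes, stood at -0.31 (adjusted p = 0.108). Ccl8, in that same cluster, had the change of 1.52 described above, and none of the 6 members in the cluster passed.

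Eotaxins attract eosinophils through CCR3. Ccl11 read 9.24, 9.08 and 9.35 on the WT-labelled and 9.03, 8.32 and 9.24 on the KO-labelled arrays. The groups overlapped, with KO 2 as the low array, and the change of -0.36 ± 0.25 (SE) did not pass (adjusted p = 0.279). Ccl24 and Ccl26 stood at -0.19 and -0.41 (adjusted p = 0.407 and 0.197).

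The inflammatory CC chemokines that activated macrophages and T cells make, Ccl3, Ccl4 and Ccl5, had changes below 0 that did not pass. Ccl3 read 7.75, 7.67 and 8.10 on the WT-labelled and 7.41, 6.98 and 7.49 on the KO-labelled arrays, without overlap. Its change was -0.55 ± 0.19 (SE), or -0.18 against the median (adjusted p = 0.0773). Ccl4, its neighbour in the genome, stood at -0.46 (adjusted p = 0.072). Ccl5, made by T cells, stood at -0.15 (adjusted p = 0.393).

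The neutrophil attractants lie in a cluster on chromosome 5 and gave changes within a narrow range. Cxcl1, Cxcl2, Cxcl3, Cxcl5 and Cxcl15 stood between -0.50 (Cxcl15) and -0.33 (Cxcl1), with a median of -0.38. Against the median of all probe sets they lay between -0.13 (Cxcl15) and 0.03 (Cxcl1), so they moved much as the typical probe set did. For 4 of these 5 genes the groups did not overlap, Cxcl5 being the exception, and 0 passed (adjusted p from 0.0556 for Cxcl3 to 0.216 for Cxcl1). Over all chemokines 14 (41.2%) had KO-labelled values entirely below the WT-labelled ones, beside 44.9% of all probe sets and 41% of protein-coding genes. The 2 platelet chemokines of the same cluster have no Cxcl symbol and are no members: Ppbp fell by 0.64 (adjusted p = 0.0384), and Pf4 stood at 0.49 without passing (adjusted p = 0.179). Of 5 neutrophil markers 1, Ly6g, fell and 0 rose, and the list means were 7.28 to 7.56 (WT-labelled) and 6.68 to 7.16 (KO-labelled). Of 5 mast cell markers 3 fell and 0 rose (7.43 to 7.61 and 6.91 to 7.13). The share called lower over all probe sets was again 15.6%. After centring 0 markers of both lists were called, and after quantile normalization 1, the mast cell gene Cpa3, was lower.

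The chemokines of skin, gut and thymus did not pass. Ccl28, a ligand of CCR10 at mucosal surfaces, read 7.38, 6.87 and 7.18 on the WT-labelled and 6.79, 5.93 and 6.79 on the KO-labelled arrays. The groups did not overlap, with KO 2 far below the rest, and the change was -0.64 ± 0.28 (SE) (adjusted p = 0.118). Ccl20, the ligand of CCR6, stood at -0.27 (adjusted p = 0.184), Ccl25, the thymic ligand of CCR9, at -0.11 (adjusted p = 0.573), and Ccl27a, a skin ligand of CCR10, at -0.16 (adjusted p = 0.23). Xcl1, which draws cross-presenting dendritic cells through XCR1, read 7.12, 7.23 and 7.11 on the WT-labelled and 7.31, 6.58 and 6.44 on the KO-labelled arrays. KO 1 was the highest of all 6 arrays and KO 2 and KO 3 the lowest, and the change of -0.38 did not pass (adjusted p = 0.24).

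Many of the lower values came from KO 2. This array held the lowest of the 6 values for 19 of the 34 chemokines (55.9%), beside 58.6% of all probe sets and 48.8% of protein-coding genes. Its median signal was the lowest of the 6, and it correlated with the other KO-labelled arrays at 0.960 and 0.965, while those correlated at 0.986. Without KO 2 the median change of the chemokines was -0.22, and the calls left were Cxcl9 and Ccl19.

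**Figure D3:**
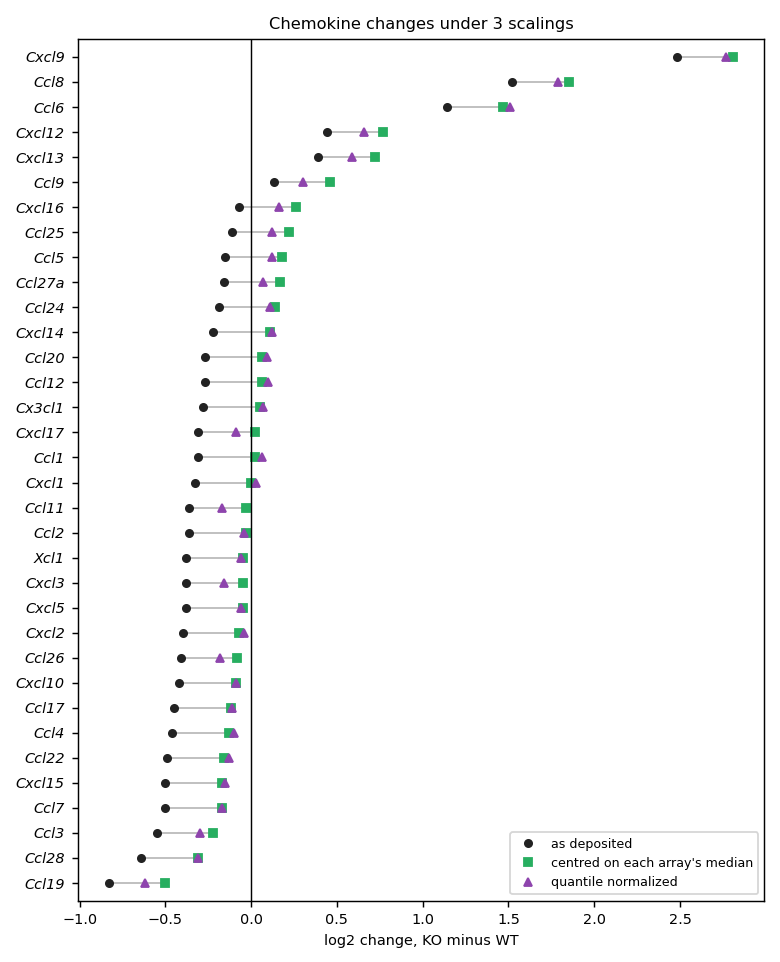
Change of each chemokine gene on the log2 scale (x axis) with the values as deposited, after centring each array on its median and after quantile normalization, 1 gene per row. Rescaling moved nearly every gene to the right, so that 17 of the 34 had a change below 0 under either rescaling beside 28 as deposited, while Cxcl9 stayed above 2 and Ccl19 below 0.

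Scaling therefore decided the sign of many small changes. After centring each array on its median the chemokines' median change was 0.01 and their calls were Cxcl9 and Cxcl12, higher, and Ccl19, lower. Of all calls over the array, 25.4% were higher with the deposited values, 61.2% after centring and 64.6% after quantile normalization. The signs of Ccl1, Ccl5, Ccl12, Ccl20, Ccl24, Ccl25, Ccl27a, Cx3cl1, Cxcl14 and Cxcl16 turned under both rescalings, those of Cxcl1 and Cxcl17 under one of them, and none of these genes passed in any of the 3 settings.

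The receptors were read from a list of 24 genes, of which 23 had a probe set of their own. Of these 4 fell and 0 rose, beside backgrounds of 15.6% and 5.32% over all probe sets, and their median change was -0.50. Cxcr3, the receptor of Cxcl9, read 7.41, 7.32 and 7.34 on the WT-labelled and 6.87, 6.55 and 6.40 on the KO-labelled arrays. These groups did not overlap, and the receptor fell by 0.75 (adjusted p = 0.0364). For scale beside the 4 chemokine receptors called, the olfactory receptor genes had a median change of -0.82, with quartiles of -1.08 and -0.56. The Cxcr3 signals on WT 2 and WT 3 lay below the olfactory receptor medians of those arrays, and on WT 1 just above. Ccr7, the receptor of Ccl19, went from 9.29, 8.99 and 9.14 to 8.36, 7.56 and 8.47 and fell by 1.01 (adjusted p = 0.0458). Cx3cr1, the fractalkine receptor of monocytes and macrophages, went from 8.51, 8.76 and 8.78 to 7.73, 7.22 and 8.05 and fell by 1.02 (adjusted p = 0.0395). Ccr2, the receptor of Ccl2 on inflammatory monocytes, went from 7.63, 7.83 and 7.73 to 7.33, 7.05 and 7.23 and fell by 0.53 (adjusted p = 0.042). In each of these 3 receptors the KO-labelled values all lay below the WT-labelled ones, with KO 2 lowest. Against the median of all probe sets these 4 changes were -0.38, -0.64, -0.65 and -0.16, and after centring the arrays none of the 4 passed (adjusted p = 0.12, 0.064, 0.0507 and 0.325). After quantile normalization Cx3cr1 alone of the 4 passed (adjusted p = 0.0478). Without WT 1, WT 2, WT 3 or KO 3 no receptor passed. Cxcr4 and Ackr3, the receptors of Cxcl12, and Ackr1, the chemokine-binding protein of venules and red cells, had changes of 0.10, 0.18 and 0.15 with the deposited values; the other 20 receptors lay below 0. Cxcr4 passed, as higher, after quantile normalization (adjusted p = 0.0495).

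**Figure D4:**
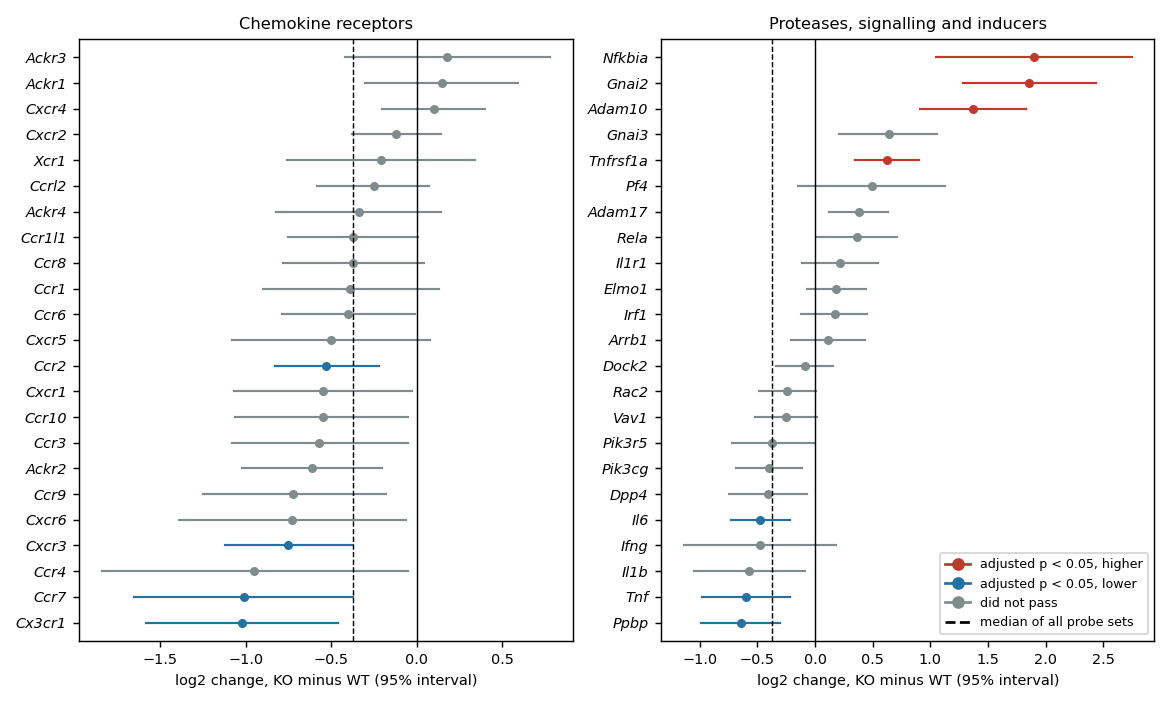
Change on the log2 scale with 95% intervals from limma for 23 chemokine receptors (left) and 23 genes of chemokine processing, signalling and induction (right), over 3 arrays per group, with 0 as a solid and the median of all probe sets as a dashed line. Receptors lie mostly below 0, from -1.02 to 0.18, while the right panel spans -0.64 to 1.90 with calls on both sides.

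Genes that process chemokines, carry their signal or induce them moved both ways. Of 27 listed 23 were measured, 4 rose and 3 fell, with a median change of 0.11. Over all probe sets 5.32% were called higher and 15.6% lower, and over protein-coding genes 10.7% and 10.2%. Nfkbia, the inhibitor of NF-kB that is itself an NF-kB target, went from 7.60, 8.16 and 7.42 on the WT-labelled to 9.06, 10.26 and 9.55 on the KO-labelled arrays. It rose by 1.90 ± 0.35 (SE), or 3.72-fold (adjusted p = 0.0356). Gnai2, the inhibitory G protein subunit through which chemokine receptors signal, went from 7.94, 7.90 and 7.42 to 9.32, 10.02 and 9.5 and rose 3.63-fold (adjusted p = 0.0354). Adam10, the protease that sheds Cx3cl1 and Cxcl16 from the membrane, went from 7.4, 7.36 and 7.34 to 8.46, 9.12 and 8.62 and rose 2.58-fold (adjusted p = 0.0354), while those ligands did not pass. Tnfrsf1a, a receptor of TNF, went from 6.77, 6.63 and 6.72 to 7.34, 7.43 and 7.22 and rose 1.54-fold (adjusted p = 0.0355). In all 4 genes the KO-labelled values lay above the WT-labelled ones, with KO 2 highest. The 3 falls were Ppbp, given above, and the cytokine genes Tnf and Il6. Ppbp read 7.01, 7.22 and 7.34 and then 6.43, 6.51 and 6.70. Tnf went from 7.33, 7.13 and 7.45 to 6.94, 6.62 and 6.56 and fell by 0.60 (adjusted p = 0.0464). Il6 went from 6.14, 6.05 and 5.99 to 5.59, 5.54 and 5.62 and fell by 0.48 (adjusted p = 0.0386). The groups did not overlap in these 3 genes. Their WT-labelled signals all lay below the olfactory receptor medians of the same arrays, and a level above background was not tested. Ifng, the inducer of Cxcl9, stood at -0.48 with overlapping groups (adjusted p = 0.192). The Ifng signals lay below the olfactory receptor medians on every array, and a level above background was not tested for it either. Irf1, a transcription factor of the interferon response, stood at 0.17 (adjusted p = 0.273). After centring the 4 rises still passed, and the 3 falls did not (adjusted p = 0.212, 0.273 and 0.489). Without KO 1 or KO 2 1 modulator was called lower, and without WT 1, WT 2, WT 3 or KO 3 none of the 7 passed.

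The marker lists with the most calls were those of endothelium and adipocytes. All 5 endothelial markers rose, and their list means ran from 7.09 to 7.29 (WT-labelled) and from 9.16 to 9.96 (KO-labelled). Of 8 adipocyte markers 6 rose and 0 fell (8.78 to 10.55 and 11.93 to 13.37). Both counts were the same after centring and after quantile normalization. With the deposited values 5.32% of all probe sets were called higher. After centring 5146 of 65956 were, and after quantile normalization 4032. Of 11 measured housekeeping genes 6 rose and 0 fell, with a median change of 1.11. Of 5 skeletal muscle markers 0 were called, though KO 1 and KO 2 had list means of 9.17 and 11.09 where KO 3 had 7.09 and the WT-labelled arrays 7.05 to 7.18. Of 5 measured fibroblast and progenitor markers 1 rose, or 3 after centring, and of 3 mesothelial markers 0 were called. The housekeeping list mean was highest on KO 2. On KO 1, KO 2 and KO 3 Cxcl9 had the order of the endothelial, adipocyte, muscle, and fibroblast and progenitor list means. Each was highest on KO 2 and lowest on KO 3. The part of these cell types in the rise of Cxcl9 was not tested.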

How the data were processed

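The deposited table gives log2 signals per probe set, per the values themselves, for 6 arrays. RNA was labelled with a GeneChip WT Pico kit, per the labels' protocols, and Transcriptome Analysis Console is named in the submitters' processing notes. The sources used here state no background correction, normalization or build. Without detection calls, a level above background was not tested for any gene. The chemokines' median signals were 7.10, 7.16 and 7.25 on the WT-labelled arrays, below the olfactory receptor medians of those arrays. On the KO-labelled arrays they were 7.25, 6.73 and 7.01, above the olfactory receptor medians. Mean signal was used to choose which members to print array by array, to name Cxcl10 as the lowest, and to drop dim probe sets in an alternative. Of 65956 probe sets 31258 had 1 gene symbol after older symbols were updated through RefSeq (GRCm38.p6), 1492 several and 33206 none.

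limma 3.58.1 in R 4.3.3 (lmFit, eBayes) compared the groups, with Benjamini-Hochberg adjustment over all probe sets; the smallest adjusted p was 0.0305. The procedure was tested on simulated data with 200 changed probe sets. The exact test of Tfg used scipy 1.17.1. The members and lists were chosen with earlier results of these data known. Every member is named. Values on each array are given for called members, the 3 with the highest mean signal, the 4 highest and 4 lowest changes, and Ccl2, Ccl11, Ccl19, Cxcl10, Cxcl12, Cxcl13, Cxcl14 and Cx3cl1, with a few others chosen after their values were seen; from the receptor and modulator lists, they are given for called genes. Figures and tables used Python 3.11.15. The labels call the samples biological replicates. No batch or scan date was given, and the number of arrays limits the precision.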

Additional observations from a re-analysis of the deposited data

How the results depend on the processing

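Results were recomputed under 13 alternatives. With the deposited values the calls were 3509 higher and 10282 lower over all probe sets, 1 and 2 among the chemokines, 0 and 4 among the receptors and 4 and 3 among the modulators. Quantile normalization gave 2212 lower over all probe sets, 2 higher and 1 lower chemokines, 1 higher and 1 lower receptor, 7 higher and 0 lower modulators, a chemokine median of -0.00, and 4 chemokines wholly above and 3 wholly below the WT-labelled arrays. Centring each array on its median gave 3259 lower, 2 and 1 chemokines, 0 lower receptors, 0 lower modulators, a median of 0.01, and 4 above and 2 below. Array weights, lowest for KO 2 at 0.22, gave 17432 lower, 2 and 5 chemokines, 7 lower receptors and 6 lower modulators. Without dim probe sets (mean under 6.83), which left 20 chemokines, 2 were called higher and 5 lay wholly below. Leaving out each array in turn gave 0 to 3469 higher and 0 to 10697 lower over all probe sets, 0 to 2 higher and 0 to 3 lower chemokines, 0 to 4 lower receptors, 0 to 4 higher and 0 to 1 lower modulators, and 2 to 4 chemokines wholly above and 14 to 20 wholly below. In limma's fits that dropped WT 1, WT 2, WT 3 or KO 3 the calls were 0, while unadjusted p values under 0.05 numbered 23757, 25102, 21579 and 28697. The causes of these shifts were not tested.

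With the replicate block 2 chemokines were called higher and 1 lower, with Ccl6 gained and Ccl17 lost, and 1 modulator was called lower. The numbers share no known source, so they were not taken as pairs. Deviations from the group mean correlated at 0.00, 0.20 and 0.14 for same-numbered arrays and at -0.22 to 0.17 for the others. With 3 arrays per group these values cannot show whether mice were paired.

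Changes turned sign after quantile normalization to 0.09 for Ccl20, 0.07 for Ccl27a, 0.03 for Cxcl1, 0.11 for Ccl24, 0.12 for Ccl25, 0.07 for Cx3cl1, 0.10 for Ccl12, 0.16 for Cxcl16, 0.06 for Ccl1, 0.12 for Ccl5 and 0.12 for Cxcl14, and after centring to 0.06 for Ccl20, 0.17 for Ccl27a, 0.14 for Ccl24, 0.02 for Cxcl17, 0.22 for Ccl25, 0.05 for Cx3cl1, 0.06 for Ccl12, 0.26 for Cxcl16, 0.02 for Ccl1, 0.18 for Ccl5 and 0.11 for Cxcl14. With each array left out in turn Cxcl13 ranged from -0.29, without KO 3, to 1.03, without KO 2.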
